A study of Mus musculus with 42 samples.

Results

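The ATF4 stress and amino acid supply genes are 38 genes listed by symbol: 8 regulators of the integrated stress response (ISR), 8 enzymes of asparagine, serine and one-carbon metabolism, 6 enzymes of transsulfuration, proline synthesis and transamination, 6 amino acid transporters and 10 cytosolic tRNA synthetases. All 38 were found among the 14296 genes of the deposited tables, where they were matched by identifier through GENCODE vM21 on GRCm38. The RNA came from W9.5 mouse embryonic stem (ES) cells, a single line of 129X1/SvJ background, which were taken out of LIF and left to form embryoid bodies without direction towards a lineage. Cultures were harvested at 21 time points from 0 h, the undifferentiated state, to 120 h, every 6 h. Each time point held 2 libraries, replicates A and B, described as biological duplicates, and stranded poly-A RNA was sequenced in all 42. The libraries of a time point shared the line, the medium change and the time, and no undifferentiated culture kept alongside was used here, so that hours in culture and differentiation cannot be told apart.

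ATF4 is a transcription factor whose protein accumulates when eIF2 is phosphorylated by one of the eIF2 kinases, which sense uncharged tRNA, misfolded proteins in the endoplasmic reticulum, double-stranded RNA or haem shortage. Its control is largely at translation, so that the Atf4 transcript is not a measure of the protein. Together with C/EBP partners it is known to switch on enzymes that make non-essential amino acids, transporters that import them, the enzymes that charge tRNAs, and further regulators such as Ddit3 (CHOP) and the pseudokinase Trib3. Growing ES cells use serine and one-carbon metabolism heavily, which is why these genes are often read as a record of amino acid demand as well as of stress.

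The letters TGATGNAA are the core of the composite C/EBP-ATF response element, and they were looked for on both strands of RefSeq promoter windows (GRCm38.p6), from 250 bases before to 50 after each gene's start. A window was held for 33 of the 38 members, and 12 of these 33 genes (36.4%) had at least 1 match in it, against 4.51% of all 27025 genes with a window. The members were listed as genes of the ATF4 pathway, so a higher share follows in part from how they were chosen. The 27025 genes were not limited to the 14296 of the deposited tables. Both shares are given as a description. The other strand of the motif reads TTNCATCA, and no other motif was searched. No windows were held for Cth, Slc7a3, Slc7a5, Wars and Nars. The following stretches, 5′ to 3′ on the strand of the gene with the match in capitals, are those of some of the members described here.
Asns, chr6:7693214-7693243, minus strand: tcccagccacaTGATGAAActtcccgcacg
Pycr1, chr11:120643833-120643862, minus strand: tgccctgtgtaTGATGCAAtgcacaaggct
Chac1, chr2:119351038-119351067, plus strand: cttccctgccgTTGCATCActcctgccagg
Nupr1, chr7:126625562-126625591, minus strand: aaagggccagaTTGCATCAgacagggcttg
Slc7a11, chr3:50443642-50443690, minus strand: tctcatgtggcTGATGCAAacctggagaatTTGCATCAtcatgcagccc

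The first base of the match stood at -23 from the RefSeq start in Asns, -103 in Pycr1, -193 in Chac1 and -110 in Nupr1. Slc7a11 held a pair of matches facing each other, at -66 and -47. The other genes with a match included Trib3, Yars, Gars, Iars, Tars and Got1. A match is a stretch of letters and no record of binding, which was not measured here.

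The counted reads per library ran from 10120972 to 51652434, with a median of 29692082, and 3 reads corresponded to 0.057 to 0.316 CPM, the reads of a gene scaled to a common library size. Values are log2 CPM, so that a difference of 1 is a doubling. The duplicates stood farthest apart at 96 h, where 41.2% of all genes and 14 of the 38 members differed by over 0.5 between replicates A and B, against 7.19% to 24% of all genes and 0 to 6 members at the other time points. Results that use 96 h are therefore given with this in view, and the fit was repeated without it. Of the pluripotency markers, Pou5f1 had a mean of 9.98 at 0 h and 8.62 at 120 h, and Nanog, Sox2 and Zfp42 had means of 8.89, 9.38 and 9.18 at 0 h. The streak marker T had a mean of -1.65 at 0 h, 3.61 at 72 h and 6.76 at 96 h. Of the fibroblast markers, the means at 0 h and 120 h were 2.40 and 5.90 for Col1a1, -3.25 and 4.66 for Col1a2, -4.78 and 2.29 for Postn and -5.58 and -1.58 for Dcn, while Thy1 went the other way, with 4.37 and 1.82. At 0 h the means of Col1a2, Postn and Dcn lay below the level of 3 reads (0.127 CPM in A and 0.124 CPM in B), so they are no measured levels. Dcn had a mean of 0.53 at 48 h, above that at 120 h. In such mixed cultures fewer cells of a type and less RNA per cell cannot be told apart, and the part of the cell mixture in the results for these genes was not tested.

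A change over the course was called for 34 of the 38 members at an adjusted p below 0.0001 in limma, the threshold used throughout, while 74.6% of all genes passed. The members without a call were Slc7a11 (adjusted p = 0.619), Sesn2 (0.00474), Nars (0.00366) and Gars (0.000102). At an adjusted p below 0.05, 37 of 38 members and 94.2% of all genes passed. The members were thus called at a share somewhat above that of the whole table, in which most genes also changed. The time of the highest mean was 0 or 6 h for 16 members, where 28% of all genes had theirs. It fell at 12 to 48 h for 11 members (26.1% of all genes), at 54 to 96 h for 9 (24%) and at 102 to 120 h for Nupr1 and Cebpb (21.9%). The lowest mean was at 102 to 120 h for 21 members (22.1% of all genes), at 12 to 48 h for 8 (29.9%), at 54 to 96 h for 7 (25.1%) and at 0 or 6 h for Atf4 and Slc38a2 (22.9%).

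**Figure D1:**
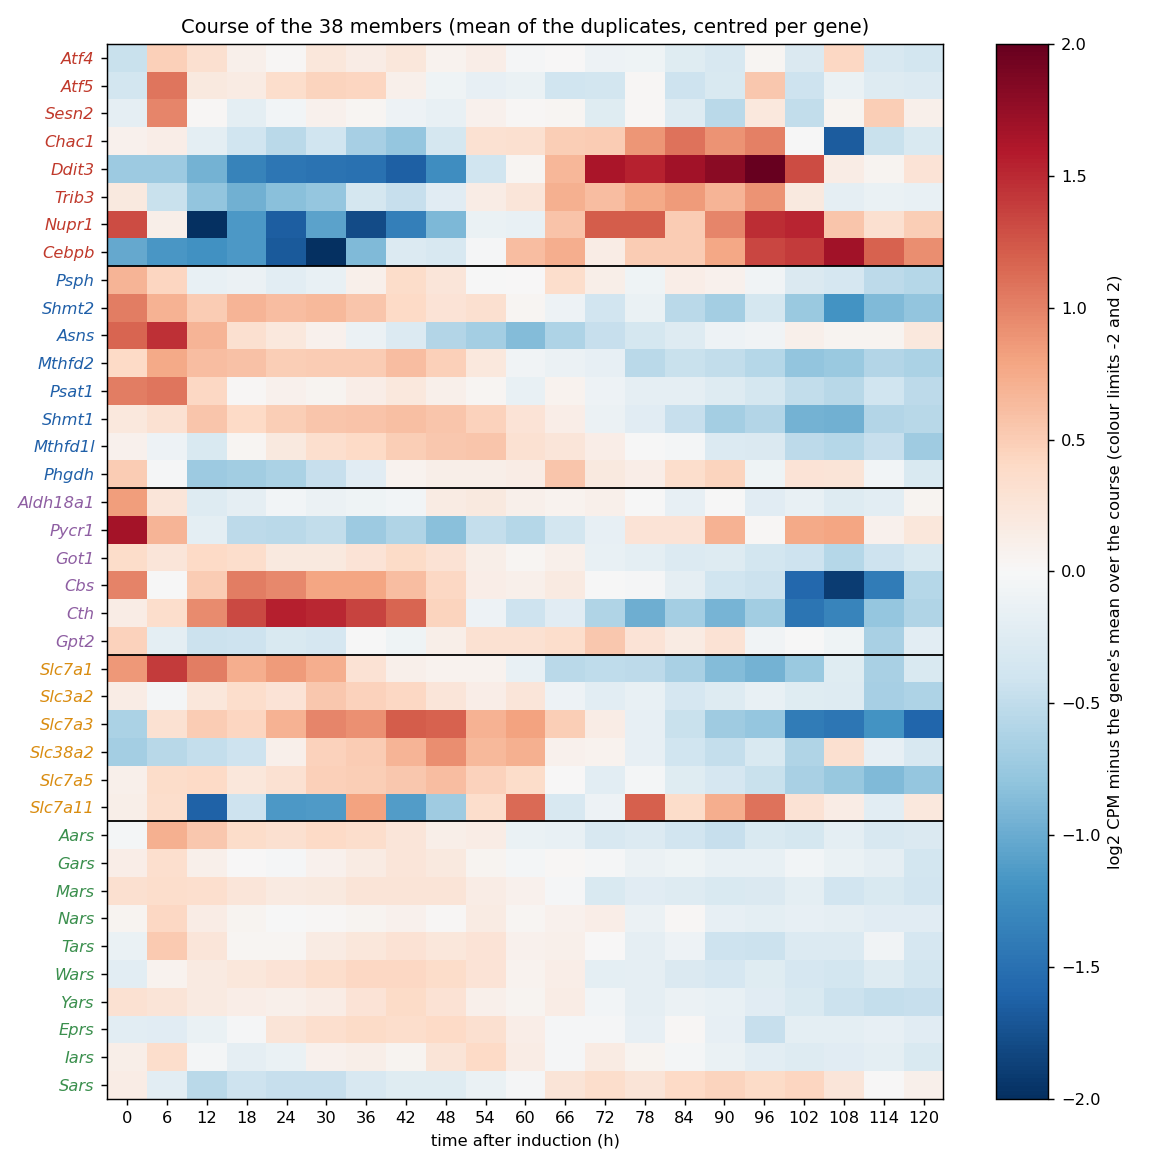
Mean log2 CPM of the duplicates of each of the 38 members (rows, grouped by role and coloured as in the later plots) at each time after induction in hours (columns), minus the gene's own mean over the course; red is above and blue below, with colours cut at -2 and 2. Ddit3 and Cebpb run from blue to red, while Nupr1 is red at 0 h, blue at 12 h and red again late in the course. The asparagine, serine and one-carbon enzymes below them run mostly from red to blue. Asns is an exception, bluest at 60 h and above its own mean at 120 h, and so is Phgdh, bluest at 12 h and reddest at 66 h.

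Between named time points, the number of members called in each direction was read against the share of all genes. At 6 h against 0 h, 5 members rose (11.8% of all genes) and 3 fell (14.5%). At 24 h against 6 h, 2 rose (5.64%) and 2 fell (5.76%). At 48 h against 24 h, 2 rose (5.27%) and 3 fell (3.7%). At 72 h against 48 h, 2 rose (5.6%) and 7 fell (3.78%). At 96 h against 72 h, 0 of 38 members passed in limma in either direction, where 2.39% of all genes rose and 1% fell. At 108 h against 96 h, 1 rose (3.85%) and 3 fell (3.13%), and at 120 h against 108 h, 1 rose (2.39%) and 0 fell (1.73%). Over the whole course, 120 h against 0 h, 1 rose (12.9%) and 19 fell (10.1%).

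At an adjusted p below 0.05 in either direction, 20 of 38 members passed in the first of these comparisons (58% of all genes), 25 in the 24 h against 6 h comparison (38.4%), 14 in the next (29.9%) and 23 at 72 h against 48 h (40.9%). The same threshold was passed by 17 at 96 h against 72 h (28.9%), 17 at 108 h against 96 h (34.3%), 8 at 120 h against 108 h (26.9%) and 25 at 120 h against 0 h (52.2%). The fall between the first and the last time point was the comparison in which the median of the members stood farthest from that of the whole table, with a change of -0.68 on the log2 scale, where the median of all genes was -0.02.

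Among the regulators, Atf4 (chr15:80255184-80257541, plus strand) was lowest at 0 h and highest at 6 h. Its log2 CPM was 7.27 and 7.34 in replicates A and B at 0 h, and 8.17 and 8.29 at 6 h. The groups did not overlap, and Atf4 rose 1.90-fold (0.93 ± 0.14 SE on the log2 scale, adjusted p = 3.79e-06). At 48 h it read 7.75 and 7.88, and at 90 h 7.31 and 7.54. A second maximum came at 108 h, where the duplicates read 8.10 and 8.23, with 7.41 and 7.49 before it at 102 h and 7.32 and 7.54 after it at 114 h. From 108 to 120 h the change was -0.78 ± 0.14 SE (adjusted p = 0.000188), which missed the threshold. It passed in the limma fit without the 96 h libraries (adjusted p = 1.36e-05) and in that with the replicate letter as a block (adjusted p = 6.56e-07). Atf4 read higher in replicate B than in A at 20 of the 21 time points, by a median of 0.15 on the log2 scale.

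Atf5, a related factor that also answers to eIF2 phosphorylation, had the highest fold among the members called at 6 h. It read 3.53 and 3.55 at 0 h, and 5.05 and 4.90 at 6 h, a 2.71-fold rise (1.44 ± 0.22 SE, adjusted p = 4.32e-06). By 12 h it read 4.02 and 4.20. Opposite-strand exons of Il4i1 and Nup62 overlap Atf5. Sesn2, a leucine sensor that restrains mTORC1, read 6.52 and 6.45 at 0 h, 7.68 and 7.6 at 6 h, and 6.70 and 6.68 at 12 h. Its difference of 1.16 ± 0.26 SE between 0 and 6 h missed the threshold (adjusted p = 0.000432), although its groups did not overlap. In the fit without the 96 h libraries, whose values for Sesn2 were 6.08 in A and 7.65 in B, the same difference passed (adjusted p = 1.88e-07). Atf4, Atf5 and Sesn2 thus shared a high value at 6 h that was lower again in both replicates at 12 h.

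**Figure D2:**
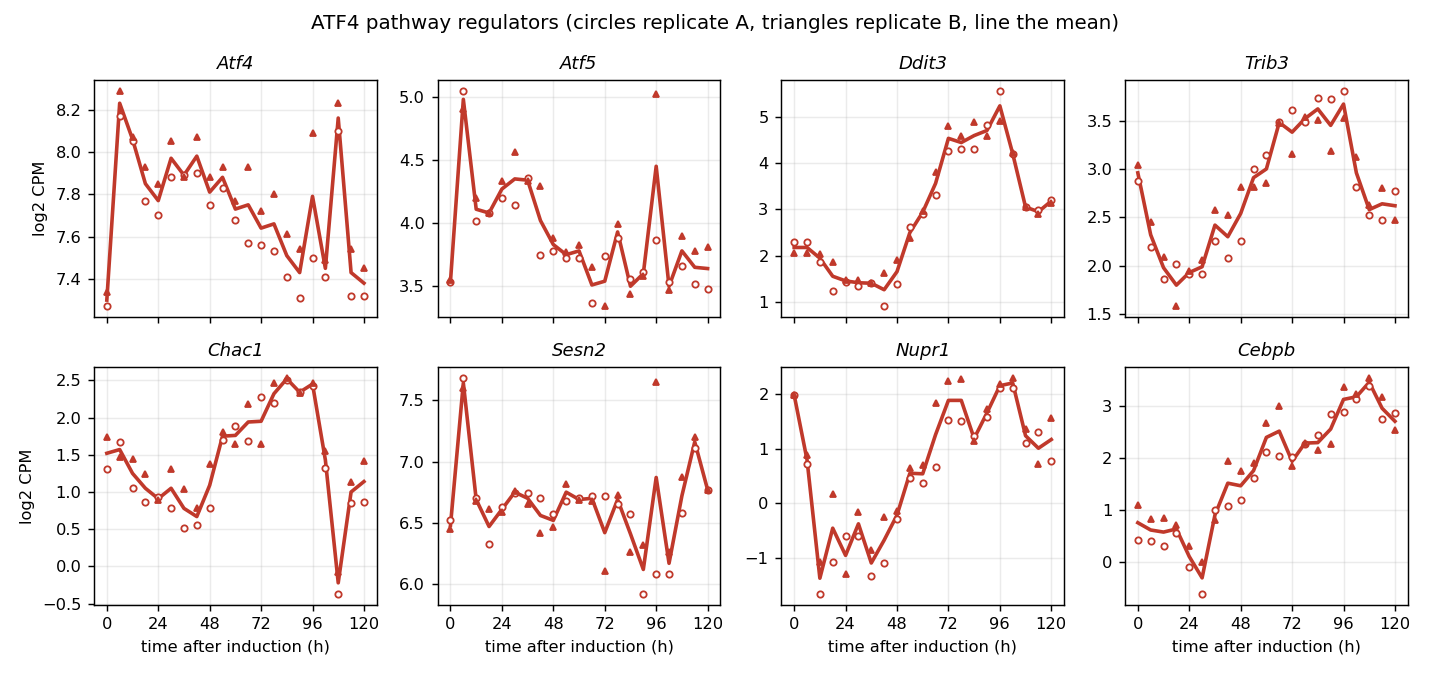
Log2 CPM of the 8 regulators against hours after induction, each with its own scale, with replicate A as open circles, replicate B as filled triangles and the mean of the duplicates as a line. Atf4, Atf5 and Sesn2 have a maximum at 6 h, Ddit3 and Trib3 have theirs at 96 h, and the duplicates of Sesn2 and Atf5 separate at 96 h.

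Ddit3, which encodes the C/EBP-family protein CHOP of prolonged stress, took another course. It read 2.29 and 2.06 at 0 h, the same within 0.01 at 6 h (2.30 and 2.06), and 0.91 and 1.64 at 42 h, the time of its lowest mean. It read 1.40 and 1.92 at 48 h, and 4.26 and 4.80 at 72 h. This was a 7.31-fold rise (2.87 ± 0.25 SE, adjusted p = 1.75e-09), and it was called whichever of the 4 libraries was left out. Its highest mean was at 96 h, where A read 5.56 and B 4.90. At 102 h it read 4.19 and 4.22, and at 108 h 3.05 and 3.06. From 96 to 108 h it fell 4.51-fold (-2.17 ± 0.25 SE, adjusted p = 1.89e-07), and this call was also kept without any 1 of the libraries. At 120 h it read 3.21 and 3.14, with a difference of 1.0 ± 0.25 SE from 0 h that missed the threshold (adjusted p = 0.0014). Ddit3 (chr10:127290774-127296288) shares exon bases with Mars on the opposite strand and with a second gene model of the same name on its own, and the strand setting of the counting is not given in the sources used here.

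Trib3, a pseudokinase induced by ATF4 and CHOP, followed Ddit3 with a smaller range. It read 2.88 and 3.04 at 0 h, 2.19 and 2.45 at 6 h, and 2.02 and 1.58 at 18 h, its lowest mean. At 48 h it read 2.26 and 2.81, at 66 h 3.49 and 3.47, and at 96 h 3.81 and 3.53. No comparison of named times passed for Trib3 in the limma fit, although the change over the course did (adjusted p = 1.82e-09). The closest was the difference of -1.09 ± 0.22 SE from 96 to 108 h (adjusted p = 0.000285), when it read 2.52 and 2.63, and this passed with precision weights from voom (-1.11, adjusted p = 9.63e-05).

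Chac1, an enzyme that degrades glutathione, read 1.31 and 1.74 at 0 h, 0.55 and 0.78 at 42 h, and 2.51 and 2.53 at 84 h. At 96 h it still read 2.42 and 2.47, while at 108 h both replicates were below 0, at -0.37 and -0.08. From 96 to 108 h it thus fell 6.36-fold (-2.67 ± 0.26 SE, adjusted p = 1.47e-08), and by 120 h it read 0.87 and 1.41. Its fewest reads in a library were 23. The lowest point of Chac1 came at the time point of the second maximum of Atf4, where Ddit3 had already come down.

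Nupr1, a small stress-induced nuclear protein, read 1.99 in both replicates at 0 h, 0.72 and 0.88 at 6 h, and -1.67 and -1.09 at 12 h. It read -0.29 and -0.14 at 48 h, 1.53 and 2.25 at 72 h, and 2.11 and 2.30 at 102 h. The difference from 48 to 72 h was 2.11 ± 0.40 SE (adjusted p = 0.000161), just short of the threshold, and it was 1.35 and passed with 1 CPM added before the log2 (adjusted p = 4.42e-05). Its fewest reads were 8, and its duplicates differed by a standard deviation of 0.42 on the log2 scale. Cebpb, a C/EBP factor that can pair with ATF4, read 0.42 and 1.10 at 0 h, -0.61 and 0.00 at 30 h, and 3.38 and 3.54 at 108 h. It was the member called higher at 120 h than at 0 h (2.87 and 2.55, 1.95 ± 0.32 SE, adjusted p = 1.23e-05), a call that was lost with precision weights from voom (adjusted p = 0.000117) and in 3 of the 4 fits without 1 of its libraries.

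Over the 21 time points, the course of the mean of Ddit3 correlated at r = 0.91 with Sars, 0.89 with Trib3, 0.84 with Nupr1, 0.75 with Cebpb and 0.70 with Chac1. It correlated at -0.85 with Cth and -0.83 with Mthfd2 and with Aars. In all, 7 of 37 other members had r above 0.5 with Ddit3 and 18 had r below -0.5. The 7 include the thinly read Slc7a11 at 0.62, whose r with Ddit3 was 0.74 in replicate A and -0.09 in B. With Atf4, 11 of 37 had r above 0.5, led by Aars at 0.72, Atf5 at 0.70 and Tars at 0.62, and 2 had r below -0.5. The r between Atf4 and Ddit3 was -0.47. Neighbouring times and libraries of a course are not independent, and these values are given as a description of the shapes. The share of all genes with r above 0.5 or below -0.5 is not given here.

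Asns, the ATF-responsive enzyme that makes asparagine, read 8.07 and 8.11 at 0 h, 8.35 and 8.46 at 6 h, and 7.58 and 7.64 at 12 h. The step from 6 to 12 h was called (-0.79 ± 0.11 SE, adjusted p = 7.8e-06), as it was for 2 of 38 members and 4.35% of all genes. From 6 to 24 h it fell 2.38-fold (-1.25 ± 0.11 SE, adjusted p = 1.27e-09), and from 24 to 48 h 1.74-fold (-0.80 ± 0.11 SE, adjusted p = 3.33e-06). It reached 6.08 and 6.06 at 60 h. It then read higher at most later times, with 6.30 and 6.64 at 72 h, 6.86 and 6.88 at 96 h, and 7.12 and 7.17 at 120 h. The end of the course was thus above its middle and below its start. Asns (chr6:7675169-7693254, minus strand) had its highest mean at 6 h like Atf4, but the r of their courses was 0.12.

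Psat1, the transaminase of the serine pathway, had the other call from 6 to 12 h (-0.66 ± 0.08 SE, adjusted p = 5.21e-07). It read 7.93 and 8.02 at 0 h, 8.05 and 8.01 at 6 h, 7.34 and 7.41 at 12 h and 7.01 and 6.95 at 18 h. It read 7.02 and 7.07 at 48 h, 6.8 and 6.81 at 60 h, and 6.46 and 6.41 at 120 h. Phgdh, the first enzyme of the same pathway, was out of step with both. It read 7.32 and 7.46 at 0 h, 6.14 and 6.16 at 12 h, and 7.30 and 7.57 at 66 h. From 24 to 48 h it rose 1.69-fold (0.75 ± 0.12 SE, adjusted p = 2.67e-05), in the interval in which Asns fell. At 96 h its duplicates read 7.06 and 6.53, and at 120 h 6.59 and 6.57. Psph, the last enzyme of the pathway, had its highest mean of 4.90 at 0 h and its lowest of 3.65 at 120 h. Opposite-strand exons of Cct6a overlap Psph.

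Shmt2, the mitochondrial serine hydroxymethyltransferase, read 8.10 and 8.17 at 0 h and 7.40 and 7.36 at 48 h. It read 6.81 and 6.64 at 72 h, 5.79 and 6.03 at 108 h, and 6.23 and 6.40 at 120 h. Its cytosolic counterpart Shmt1 had its highest mean at 42 h (7.75) and its lowest at 108 h (6.19), and it fell 1.59-fold from 48 to 72 h (-0.67 ± 0.12 SE, adjusted p = 5.76e-05). Per kilobase of exon, the level of Shmt2 exceeded that of Shmt1 by 1.07 and 1.13 log2 in the replicates at 0 h. The excess was 0.00 and 0.01 at 48 h, and -0.04 and 0.11 at 120 h. The mitochondrial form was therefore the more abundant transcript at the start, while from 48 h on its mean excess lay between -0.02 and 0.52. This ratio was not tested, and opposite-strand exons overlap Shmt2 (Ndufa4l2) and Shmt1 (Smcr8). The folate enzymes Mthfd2 and Mthfd1l had their highest means at 6 h (6.40) and at 54 h (7.52). Mthfd2 fell 1.55-fold from 48 to 72 h (-0.63 ± 0.09 SE, adjusted p = 8.63e-06).

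At 120 h all 8 enzymes of asparagine, serine and one-carbon metabolism were lower than at 0 h. The falls were 3.52-fold for Shmt2 (-1.82 ± 0.16 SE, adjusted p = 2.49e-10), 2.91-fold for Psat1 (-1.54 ± 0.08 SE, adjusted p = 3.64e-15) and 2.38-fold for Psph (-1.25 ± 0.16 SE, adjusted p = 3.2e-07). They were 2.04-fold for Mthfd2, 1.92-fold for Asns, 1.75-fold for Phgdh, 1.74-fold for Mthfd1l and 1.69-fold for Shmt1. For each of the 8, both libraries of 120 h read below both of 0 h. The share of all genes that did so is not given here. In limma, 10.1% of all genes were called lower in this comparison, and 52.2% passed an adjusted p below 0.05 in either direction. The calls of Asns, Mthfd1l, Mthfd2, Psat1, Psph and Shmt2 were kept whichever of the 4 libraries was left out. That of Shmt1 was lost in each of the 4 such fits, and that of Phgdh in all but the fit without 0 h replicate A.

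**Figure D3:**
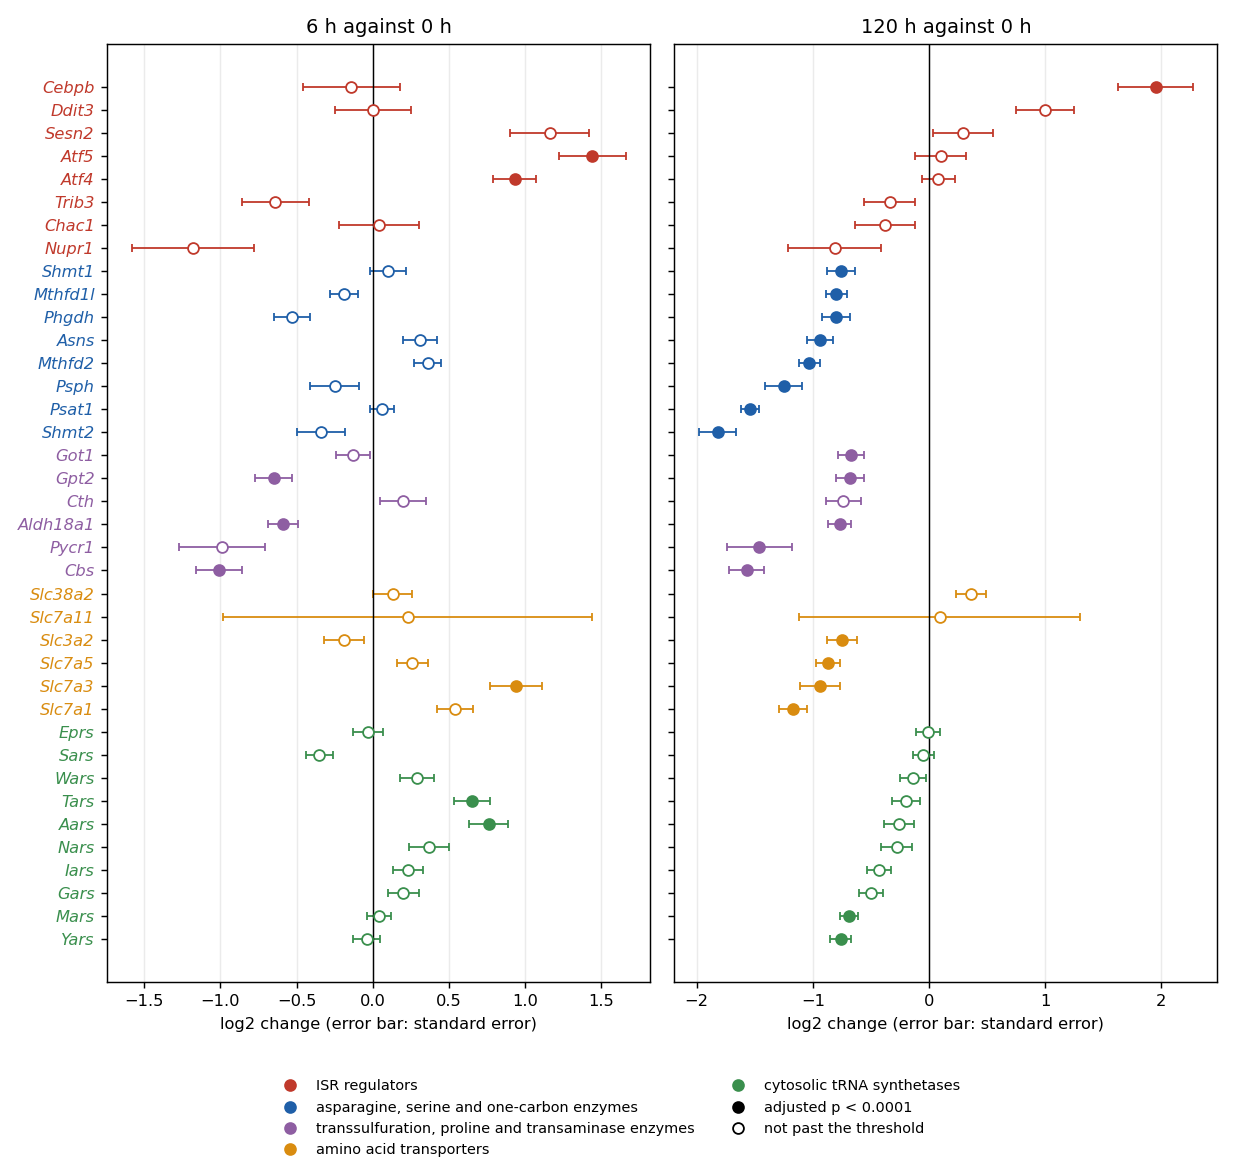
Log2 change with its standard error from 0 to 6 h (left) and from 0 to 120 h (right) for the 38 members, coloured and grouped by role, with filled points past the threshold of 0.0001 on the adjusted p. On the right, all 8 points of the asparagine, serine and one-carbon enzymes are filled and left of 0, and Cebpb is the filled point right of 0.

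Cth and Cbs make cysteine from homocysteine in 2 steps, Cbs the first and Cth the second. Cth read 6.34 and 6.47 at 0 h, 6.61 in both at 6 h, and 7.86 and 7.78 at 24 h, a 2.31-fold rise from 6 h (1.21 ± 0.15 SE, adjusted p = 2.51e-07). It then fell 2.16-fold to 48 h (-1.11 ± 0.15 SE, adjusted p = 1.24e-06) and 2.08-fold from there to 72 h (-1.05 ± 0.15 SE, adjusted p = 3.42e-06). It read 4.94 and 4.67 at 102 h, and 5.64 and 5.70 at 120 h. Its range of 3.02 was the widest among the enzymes.

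Cbs read 5.83 in both replicates at 0 h and 4.78 and 4.87 at 6 h, a 2.01-fold fall (-1.01 ± 0.15 SE, adjusted p = 2.44e-06). It was back at 5.85 in both at 18 h, with a rise from 6 to 24 h of 1.95-fold (0.96 ± 0.15 SE, adjusted p = 9.95e-06). Later it read 5.24 and 5.23 at 48 h, 3.98 and 4.82 at 96 h, 3.36 and 3.15 at 102 h and 2.86 and 3.0 at 108 h. Cbs was the member called in the 6 h step from 96 to 102 h (-1.15 ± 0.15 SE, adjusted p = 2.46e-05), where 0.315% of all genes were called. From 96 to 108 h it fell 2.77-fold (adjusted p = 2.69e-08), and from 108 to 120 h it rose 2.52-fold (1.33 ± 0.15 SE, adjusted p = 2.73e-07) to 4.26 and 4.27. Cbs and Cth thus had their highest means at 18 h and 24 h and their lowest at 108 h and 102 h, and Cbs also had a dip at 6 h, where Cth read 0.20 ± 0.15 SE above 0 h.

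Pycr1, which completes proline synthesis, read 4.24 and 4.50 at 0 h and 3.35 and 3.40 at 6 h. At 48 h it read 1.99 and 1.76, and at 90 h 3.33 and 3.45. At 96 h A read 3.51 and B 1.94, and at 102 h they read 3.32 and 3.61, so that the single low library is 96 h B. At 120 h it was 2.74-fold lower than at 0 h (-1.46 ± 0.28 SE, adjusted p = 6.63e-05). Aldh18a1, the enzyme before it in the pathway, fell 1.5-fold from 0 to 6 h (-0.59 ± 0.10 SE, adjusted p = 1.87e-05), and its mean at 0 h of 6.11 was its highest. Gpt2, a mitochondrial alanine aminotransferase, fell 1.57-fold in the same 6 h (-0.65 ± 0.12 SE, adjusted p = 2.51e-05) and had its highest mean at 72 h (5.42). Got1, the cytosolic aspartate aminotransferase, had a narrow course, between means of 6.68 at 108 h and 7.65 at 12 h. Of these 6 enzymes, Cbs, Pycr1, Aldh18a1, Gpt2 and Got1 were called lower at 120 h than at 0 h, and Cth read -0.74 ± 0.15 SE (adjusted p = 0.000146), a difference that passed in the fit without the 96 h libraries (adjusted p = 1.95e-07). The calls of Cbs and Aldh18a1 were kept whichever of the 4 libraries was left out, while those of Pycr1, Gpt2 and Got1 were lost in each of the 4 such fits.

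**Figure D4:**
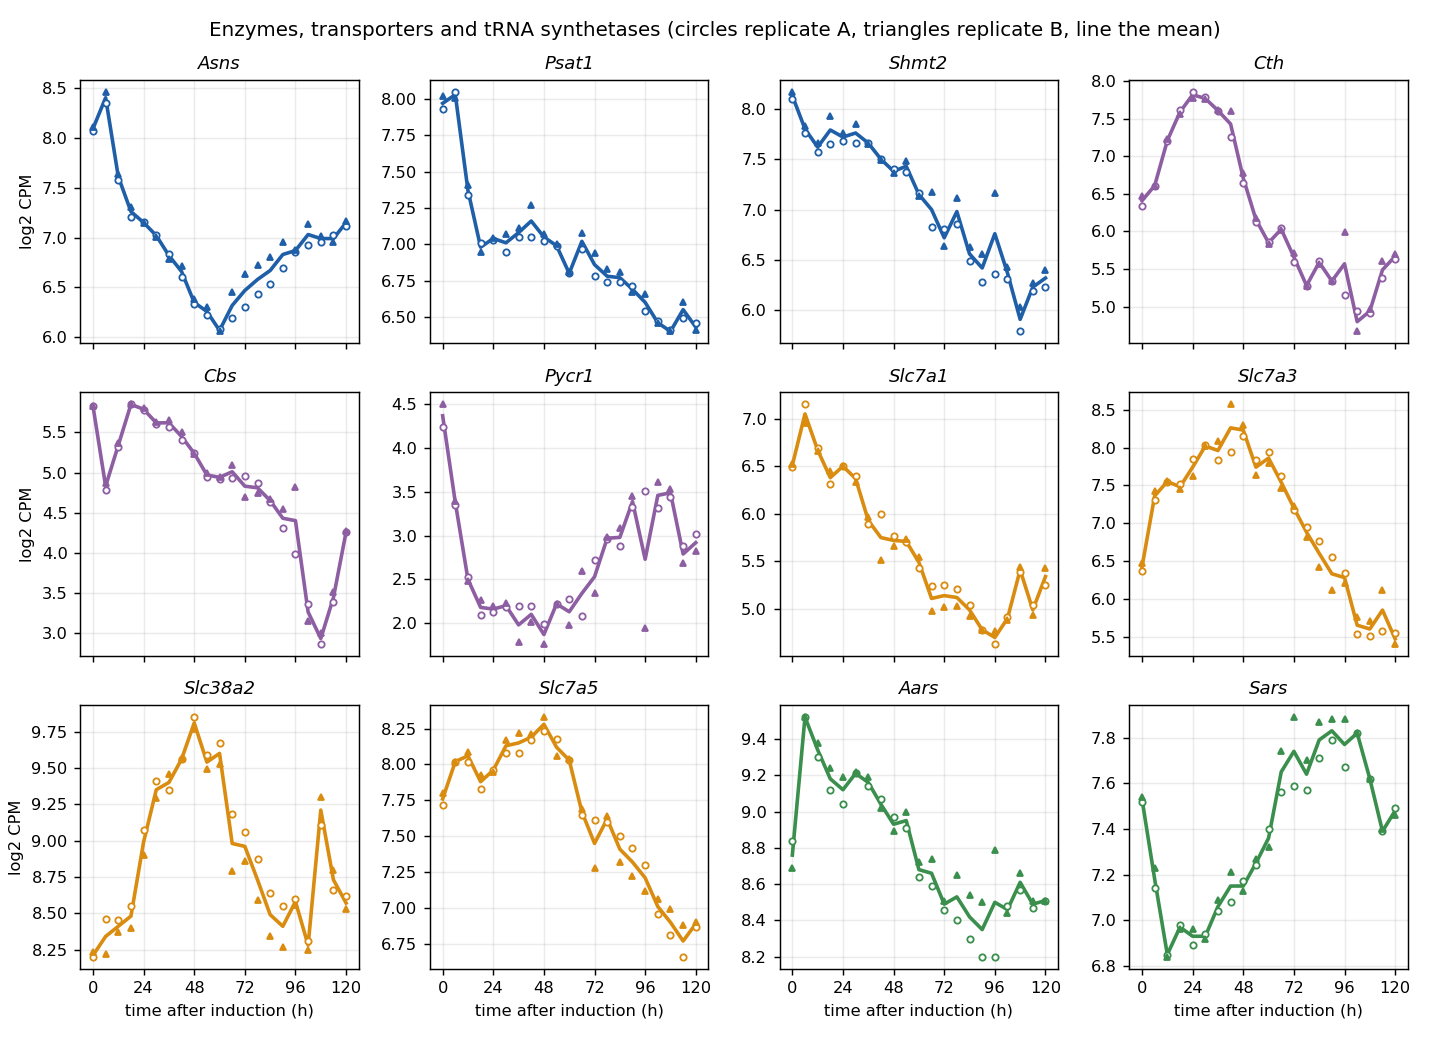
Log2 CPM of 12 members against hours after induction, each with its own scale, with replicate A as open circles, replicate B as filled triangles and the mean as a line. Asns is lowest at 60 h and Cth highest at 24 h, Slc7a3 and Slc38a2 are highest at 42 and 48 h, and Aars reads higher and Sars lower at 6 h than at 0 h.

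The cationic amino acid transporters Slc7a1 (CAT-1) and Slc7a3 (CAT-3), which import arginine and lysine, took different courses. Slc7a1 read 6.49 and 6.52 at 0 h, 7.15 and 6.95 at 6 h, 5.77 and 5.66 at 48 h, and 4.63 and 4.77 at 96 h. It fell 1.72-fold from 24 to 48 h (-0.78 ± 0.12 SE, adjusted p = 7.37e-06) and rose 1.64-fold from 96 to 108 h (0.71 ± 0.12 SE, adjusted p = 3.6e-05), to 5.39 and 5.44. Slc7a3 read 6.37 and 6.47 at 0 h and 7.30 and 7.42 at 6 h, a 1.92-fold rise (0.94 ± 0.17 SE, adjusted p = 3.41e-05). It was highest at 42 h (7.94 and 8.57) and fell 2.04-fold from 48 to 72 h (-1.03 ± 0.17 SE, adjusted p = 2.97e-05). At 120 h it read 5.55 and 5.40. Per kilobase of exon, the level of Slc7a3 exceeded that of Slc7a1 by 1.49 and 1.56 log2 in the replicates at 0 h. The excess widened to 3.99 and 4.25 at 48 h and was 1.91 and 1.58 at 120 h, so that by this measure Slc7a3 was the higher of the pair throughout. The measure rests on annotated exon lengths of 11530 bases for Slc7a1 and 3784 for Slc7a3, which need not be those of the transcripts present. In log2 CPM, Slc7a1 had a mean of 6.51 at 0 h and Slc7a3 one of 6.42.

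Slc38a2 (SNAT2), a sodium-coupled importer of small neutral amino acids, read 8.20 and 8.23 at 0 h and 9.85 and 9.77 at 48 h. It rose 1.77-fold from 24 to 48 h (0.82 ± 0.13 SE, adjusted p = 1.06e-05) and fell 1.80-fold from 48 to 72 h (-0.85 ± 0.13 SE, adjusted p = 7.65e-06). At 102 h it read 8.31 and 8.25, at 108 h 9.11 and 9.30, and at 114 h 8.66 and 8.80. The step from 102 to 108 h was called for Slc38a2 (0.93 ± 0.13 SE, adjusted p = 8.4e-06) and for Chac1 (-1.66 ± 0.26 SE, adjusted p = 5.44e-05), 2 of 38 members, where 2.04% of all genes were called. Atf4, Slc7a1 and Slc38a2 thus all read higher at 108 h than at the time points on either side of it, in both replicates. So did Atf5, Cebpb and Aars, and the share of all genes that did is not given here. The course of Slc38a2 was opposite to that of Asns, with r = -0.66.

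Slc7a5 and Slc3a2 form a heterodimer that exchanges glutamine for leucine and other large neutral amino acids. Slc7a5 had its highest mean at 48 h (8.28) and fell 1.78-fold from 48 to 72 h (-0.83 ± 0.10 SE, adjusted p = 3.73e-07), a call kept without any 1 of the 4 libraries. Slc3a2 had its highest mean at 30 h (8.63) and its lowest at 114 h (7.42). At 120 h, Slc7a1 was 2.24-fold lower than at 0 h, Slc7a3 1.92-fold, Slc7a5 1.83-fold and Slc3a2 1.69-fold, all past the threshold. The calls of Slc7a1 and Slc7a5 were kept whichever of the 4 libraries was left out, and those of Slc7a3 and Slc3a2 were lost in each of these fits. Slc38a2 read 0.36 ± 0.13 SE higher, which did not pass.

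Slc7a11, the cystine importer of the glutathione pathway, had between 2 and 89 reads in a library and was not called in any comparison. From 72 to 108 h, replicate A read higher than B at all 7 time points, with 0.01 to 1.38 in A and -2.89 to -0.97 in B. At 84 h the replicates differed by 4.03 on the log2 scale. The duplicates of its course correlated at r = -0.12, the lowest of the members, so that no course can be given for Slc7a11 from these data.

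Of the cytosolic tRNA synthetases, which charge tRNAs with their amino acids, Aars (alanine) and Tars (threonine) were called from 0 to 6 h. Aars read 8.84 and 8.69 at 0 h and 9.52 in both replicates at 6 h, a 1.69-fold rise (0.76 ± 0.13 SE, adjusted p = 1.38e-05). It read 9.30 and 9.38 at 12 h, 8.97 and 8.89 at 48 h, and 8.20 and 8.5 at 90 h. Tars read 7.40 and 7.30 at 0 h, 8.0 and 8.01 at 6 h and 7.69 and 7.76 at 12 h, with a rise of 1.57-fold (0.65 ± 0.12 SE, adjusted p = 4.09e-05). Exons of Aars overlap those of Exosc6 on the same strand, and how reads there were counted is not given in the sources used here.

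From 0 to 6 h 7 of the 10 read higher and Sars (serine) lower, and from 48 to 72 h 8 of the 10 read lower and Sars higher. From 6 to 24 h and from 24 to 48 h, Sars moved in the direction of most of them. It read 7.52 and 7.54 at 0 h, 6.85 and 6.84 at 12 h, 7.17 and 7.13 at 48 h, and 7.59 and 7.89 at 72 h, and it rose 1.5-fold between the last pair of times (0.59 ± 0.09 SE, adjusted p = 9.77e-06). Mars (methionine) fell 1.48-fold in the same interval (-0.56 ± 0.08 SE, adjusted p = 5.55e-06), from 7.38 and 7.43 to 6.84 and 6.85. Mars and Ddit3, whose exons overlap on opposite strands, thus moved in opposite directions. Over the course the ranges of the means were 0.66 for Nars, 0.70 for Gars and Iars, 0.73 for Mars, 0.79 for Wars, 0.85 for Eprs, 0.86 for Yars, 0.96 for Tars, 0.98 for Sars and 1.17 for Aars. At 120 h, Yars (tyrosine) was 1.70-fold lower than at 0 h and Mars 1.62-fold, and the other 8 did not pass, with Eprs (glutamate and proline) at -0.01 ± 0.10 SE. The calls of Yars and Mars were kept whichever of the 4 libraries was left out.

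The 5 members that rose from 0 to 6 h were Atf4, Atf5, Slc7a3, Aars and Tars, and the 3 that fell were Cbs, Aldh18a1 and Gpt2. Each of the 8 moved the same way in both replicates. Each of the 8 calls was lost in at least 1 of the fits without 1 of the 4 libraries, although every difference kept its sign. In the fit without the 96 h time point 11 were called, with Sesn2, Pycr1 (-0.99, adjusted p = 1.64e-05) and Phgdh (-0.53, adjusted p = 6.22e-05) added. The share of all genes called in these fits is not given here, so the shifts cannot be read as particular to the members.

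The 14 members whose duplicates differed by over 0.5 at 96 h included Sesn2 (6.08 in A and 7.65 in B), Atf5 (3.87 and 5.02), Atf4 (7.5 and 8.09), Aars (8.20 and 8.79) and Wars (6.09 and 6.70), all higher in B. Ddit3 (5.56 and 4.90), Phgdh (7.06 and 6.53), Gpt2 (5.08 and 4.55), Pycr1 and Slc7a11 (1.24 and -1.08) were higher in A. Cth, Cbs (3.98 and 4.82), Shmt2 (6.36 and 7.16) and Shmt1 (6.30 and 6.82) were higher in B. Sesn2, Atf5, Atf4 and Aars had their highest means at 6 h, and Pycr1, Gpt2 and Phgdh read lower at 6 h than at 0 h. These genes were picked out after their 96 h values were seen, and others with the same early course stood differently. Asns and Mthfd2, also highest at 6 h, differed by 0.02 and -0.06 (B minus A) at 96 h, and Slc7a1 by 0.13. Nupr1, Shmt2 and Cbs, which read lower at 6 h than at 0 h, were 0.08, 0.80 and 0.84 higher in B, and Slc7a3, which rose at 6 h, read 6.34 in A and 6.21 in B. More members were called from 72 to 96 h when either 96 h library was left out, and more from 96 to 108 h without 96 h A. The share of all genes called in these fits is not given here.

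**Figure D5:**
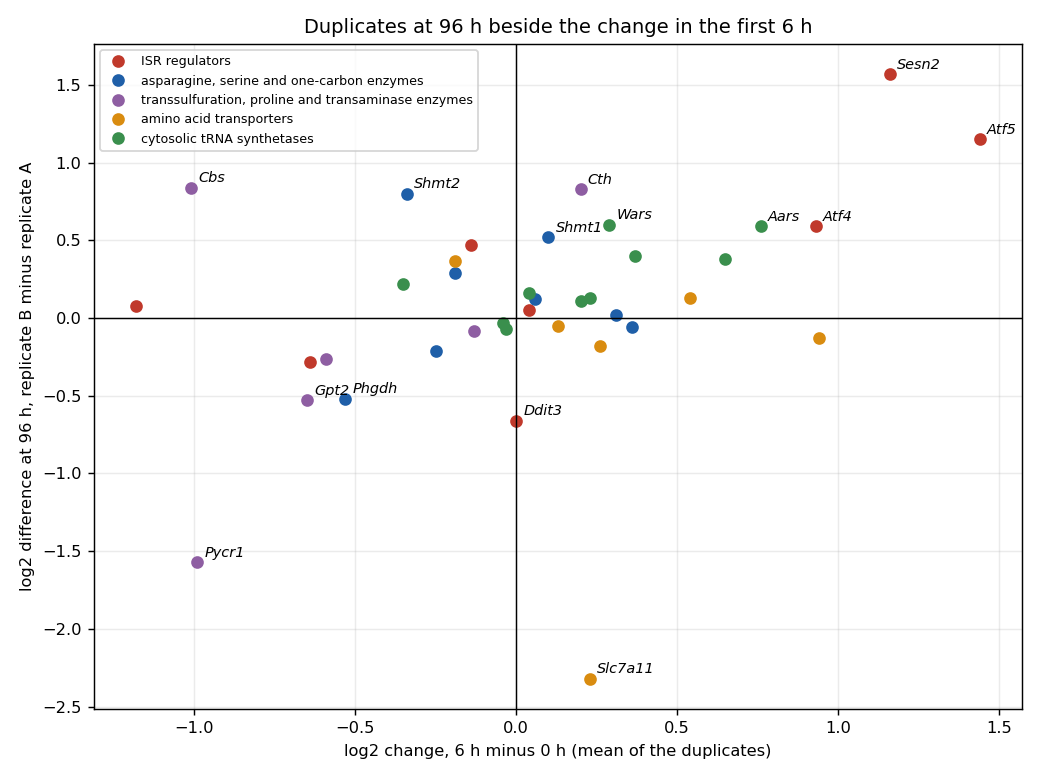
Log2 difference of replicate B minus replicate A at 96 h (vertical axis) against the log2 change of the mean from 0 to 6 h (horizontal axis), 1 point per member coloured by role, with the 14 members past 0.5 in either direction named. Sesn2 and Atf5 are at the upper right, Pycr1, Gpt2 and Phgdh at the lower left, and Cbs at the upper left.

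The genes around the members were counted from lists by function. Of 14 genes for eIF2 kinases, phosphatase subunits, eIF2B and their modulators, 3 were called from 0 to 6 h, where 26.3% of all genes were called in either direction. Impact, an inhibitor of the kinase GCN2, rose (0.90 ± 0.11 SE), Eif2s1, the phosphorylated subunit itself, rose (0.58 ± 0.10 SE), and Eif2ak4, which encodes GCN2, fell (-0.70 ± 0.13 SE). At 120 h against 0 h Impact was the 1 of 14 that passed (1.66 ± 0.11 SE), where 12.9% of all genes were higher and 10.1% lower. From 96 to 108 h Ppp1r15b, a subunit that directs dephosphorylation of eIF2, rose (0.73 ± 0.12 SE), and from 108 to 120 h it fell (-0.75 ± 0.12 SE).

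Of 24 other genes known as ATF4 targets, 2 rose and 7 fell from 0 to 6 h, beside 11.8% and 14.5% of all genes. The rises were Atf3, a stress-induced repressor (2.12 ± 0.27 SE), and Sqstm1, the autophagy receptor p62 (1.23 ± 0.12 SE). The largest falls were Gdf15, a stress hormone (-2.79 ± 0.45 SE), Slc6a9, a glycine transporter (-1.88 ± 0.23 SE), and Stc2 (-1.60 ± 0.27 SE). From 48 to 72 h, when Ddit3 rose, 7 of the 24 rose (5.6% of all genes) and 0 fell in limma (3.78%), led by Jdp2 (3.77 ± 0.40 SE), Vldlr (3.47 ± 0.38 SE) and Ndrg1 (2.48 ± 0.19 SE). At 120 h against 0 h, where 12.9% of all genes were higher and 10.1% lower, 6 were higher, led by Atf3 (3.72 ± 0.27 SE), Slc43a1 (1.56 ± 0.13 SE) and Gabarapl1 (1.07 ± 0.14 SE), and 5 were lower, led by Gdf15 (-2.55 ± 0.45 SE), Aldh1l2 (-2.37 ± 0.39 SE) and Ndrg1 (-2.22 ± 0.19 SE).

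Of 19 genes of the unfolded protein response of the endoplasmic reticulum, 2 were called from 48 to 72 h, the interval of the rise of Ddit3. Dnajc3, an inhibitor of the kinase PERK, rose (0.44 ± 0.08 SE) and the chaperone Hyou1 fell (-0.47 ± 0.09 SE), beside 5.6% of all genes that rose and 3.78% that fell. From 96 to 108 h, when Ddit3 fell, 3 of the 19 fell (3.13% of all genes), Derl3 (-1.81 ± 0.22 SE), Sdf2l1 (-1.19 ± 0.15 SE) and Herpud1 (-0.88 ± 0.15 SE). At 120 h against 0 h the main chaperone Hspa5 (BiP) was higher (0.91 ± 0.12 SE), as were Dnajc3 (0.70 ± 0.08 SE) and Edem1 (0.59 ± 0.09 SE), while Derl3 (-2.31 ± 0.22 SE) and Sdf2l1 (-1.24 ± 0.15 SE) were lower. Beside these, 12.9% of all genes were higher and 10.1% lower. The median change of the list from 48 to 72 h was 0.01 on the log2 scale, the same as that of all genes.

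Of 10 cytosolic tRNA synthetases that are no members, 1 was called from 0 to 6 h, Vars (-0.68 ± 0.12 SE), and 2 at 120 h against 0 h, Cars (-0.71 ± 0.10 SE) and Qars (-0.47 ± 0.08 SE). Of 17 mitochondrial ones, 3 fell from 0 to 6 h, Aars2 (-0.69 ± 0.10 SE), Vars2 (-0.68 ± 0.12 SE) and Cars2 (-0.60 ± 0.11 SE), and 0 rose in limma, beside 14.5% and 11.8% of all genes. Aars rose in this interval and its mitochondrial counterpart Aars2 fell. At 120 h, 4 were lower, among them Cars2 (-0.95 ± 0.11 SE) and Aars2 (-0.91 ± 0.10 SE), and Wars2 was the 1 gene that was higher (0.85 ± 0.12 SE). Of all genes, 10.1% were lower and 12.9% higher at 120 h against 0 h.

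The members with and without a motif match in the RefSeq window were set side by side. Of all genes, 11.8% rose and 14.5% fell from 0 to 6 h, and 12.9% were higher and 10.1% lower at 120 h against 0 h. From 0 to 6 h, 2 of the 12 with a match rose and 0 fell, with a median change of 0.12, and 2 of the 21 without a match rose and 3 fell, with a median of -0.03. At 120 h against 0 h, 4 of the 12 with a match fell and 0 rose, with a median of -0.46, and 13 of the 21 without a match fell and 1 rose, with a median of -0.75. Asns, Chac1 and Nupr1, all with a match, had their highest means at 6, 84 and 102 h.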

How the data were processed

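Poly-A RNA of 42 libraries was measured, 2 per time point. Per the series' methods, the authors used Trim Galore for trimming, TopHat2 for alignment to mm10 and HTSeq for counts over GENCODE vM2 genes, then scaled the libraries with edgeR and applied voom. Tool versions and the strand setting are not given in the sources used here. The strand setting bears on members with opposite-strand exons over them. These are Atf5 (Il4i1, Nup62), Ddit3 (Mars, Gm4189), Cebpb (Tmem189), Psph (Cct6a), Shmt1 (Smcr8), Shmt2 (Ndufa4l2), Aars (Gm24103), Yars (C77080) and Mars (Ddit3). The deposited values are log2 CPM with the voom offset, and they gave back whole reads (largest distance from a whole number 2.91e-08), from which the depths were taken. Precision therefore depends on reads per gene and on the spread of 2 libraries.

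Gene names, positions and exon lengths came from GENCODE vM21, which named 14177 of the 14296 genes. Ddit3 was matched by its identifier, since 2 gene models carry that name. Groups came from the time and replicate in the sample labels. The deposited log2 values were fitted with limma 3.58.1 in R 4.3.3 (lmFit and trended eBayes) over all 42 libraries, with time as a factor of 21 levels and 21 residual degrees of freedom. Benjamini-Hochberg adjustment ran over all 14296 genes within each contrast, and calls were made below 0.0001. Standard errors (SE) are those of this fit, whose spread is shared by all time points. Fitted p-values measure the spread between the 2 cultures of a time point only.

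The members, the lists and the comparisons were chosen with earlier results of these data known. All members are named. In each role those with the widest range are described by time, with Atf4, Ddit3, Trib3 and Asns always, and from other lists up to 3 called genes in each direction with the largest change. The other lists share 7 genes with each other. Fgf21 and Slc7a10 were on a list and not analysed here, and a few list genes and stretches that the rule would name are not reported here. The code was tested on simulated data. Alternatives were a replicate block, 1 CPM added before the log2, a filter at a mean of 1 log2 CPM, precision weights, median-of-ratios size factors, a threshold of 0.05, leaving out each library and, chosen after seeing the data, leaving out 96 h.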

Additional observations from a re-analysis of the deposited data

How the results depend on the processing

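All 51 calls of members kept their sign under every alternative run, and 30 of them were lost in at least 1 fit without a library, in which the lone library of a time point is assumed to vary like the others. Leaving out 1 of the 4 libraries gave 1 to 2 members called from 0 to 6 h (8 with all libraries), 3 from 6 to 24 h (4), 0 to 2 from 24 to 48 h (5), 2 to 4 from 48 to 72 h (9), 0 to 3 from 72 to 96 h (0), 3 to 8 from 96 to 108 h (4), 1 from 108 to 120 h (1) and 12 to 13 at 120 h against 0 h (20). At an adjusted p below 0.05 the counts were 20, 25, 14, 23, 17, 17 and 8 for the 7 successive intervals. With a replicate block, 1 member was called from 72 to 96 h and 4 from 108 to 120 h, and no other count moved by over 1.5 times. The calls it added were those of Cth (adjusted p = 7.68e-05) and Gars (-0.50, 5.99e-06) at 120 h against 0 h, Atf4 (6.56e-07), Chac1 and Slc38a2 from 108 to 120 h, Nupr1 (2.19e-05) and Wars from 48 to 72 h, Gpt2 from 72 to 96 h, Shmt2 and Slc38a2 from 96 to 108 h, and Slc38a2 from 6 to 24 h. The letters A and B were not taken as pairs. The paper describes duplicate time courses, but the labels do not say that a letter marks a culture followed through all times. Over 210 pairs of libraries of a letter the deviations correlated at a mean of 0.08 (-0.474 to 0.598). Of these pairs, 68.6% were above 0 and 47.1% above 0.1, which does not settle whether the letters are pairs. Without 96 h, chosen after seeing the data, 7 were called from 6 to 24 h and 3 from 108 to 120 h. Median-of-ratios size factors changed no call. The cause of these differences was not tested. Depth limits Slc7a11 and Nupr1, with 2 and 8 reads at least.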

Other observations

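Of 26 further enzymes of amino acid metabolism, 3 rose and 4 fell from 0 to 6 h, shares near those of all genes (11.8% rose and 14.5% fell). Mat2a, which makes S-adenosylmethionine, rose 2.21 ± 0.11 SE on the log2 scale, Odc1, the first enzyme of polyamine synthesis, rose 1.26 ± 0.10 SE, and Glul, glutamine synthetase, rose 0.99 ± 0.14 SE. Asl (-0.83 ± 0.09 SE) and Mthfd2l (-0.78 ± 0.15 SE) were among the falls. By 24 h, Mthfd2l had risen again (1.91 ± 0.15 SE). At 120 h against 0 h, 4 of the 26 were lower, led by Bcat2 (-1.40 ± 0.11 SE), Gcat (-1.17 ± 0.16 SE) and Bcat1 (-1.01 ± 0.16 SE), and Mthfd2l was higher (1.13 ± 0.15 SE). In this comparison 10.1% of all genes were lower and 12.9% higher.

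Of 19 further amino acid transporters, 7 fell from 0 to 6 h and 0 rose in limma at the threshold, beside 14.5% and 11.8% of all genes. Slc38a3 had the largest fall (-4.40 ± 0.26 SE), then Slc1a3 (-2.15 ± 0.17 SE) and Slc6a9 (-1.88 ± 0.23 SE), while Slc7a3, a member, rose. From 24 to 48 h, 4 of the 19 rose (5.27% of all genes) and 0 fell in limma (3.7%), led by Slc38a3 (2.41 ± 0.26 SE), Slc1a4 (1.69 ± 0.14 SE) and Slc16a10 (1.66 ± 0.17 SE). At 120 h against 0 h, 5 were higher (12.9% of all genes), led by Slc43a1 (1.56 ± 0.13 SE), Slc36a4 (1.49 ± 0.21 SE) and Slc1a4 (1.06 ± 0.14 SE). The 4 that were lower (10.1% of all genes) were led by Slc38a3 (-2.03 ± 0.26 SE), Slc1a1 (-1.94 ± 0.34 SE) and Slc1a5 (-1.54 ± 0.10 SE).

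Slc3a2, like Atf4, read higher in replicate B than in A at 20 of the 21 time points, Gars at 19 and Nupr1 at 18. A lean of at least 18 of 21 time points to 1 side was seen in 11.5% of all genes.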
